A study of Mus musculus with 115 samples.

Results

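The transcripts described here encode enzymes that cut the extracellular matrix and the inhibitors that hold those enzymes in check. They are the matrix metalloproteinases (Mmp), the ADAM and ADAMTS metalloproteinases and the tissue inhibitors of metalloproteinases (Timp), measured in inguinal adipose tissue and in liver. Members were taken by name and no measured value entered the rule, but the group was chosen with earlier results of these data known. They are every probe whose symbol begins with Mmp, Adam, Adamts, Adamtsl or Timp and then a number, with 1 ADAMTS symbol not used here. The rule found 99 of the 25697 probes of the array, for 67 symbols. In adipose tissue 42 of the 99 probes, for 34 genes, were bright enough to be tested, and in liver 21 probes for 18 genes.

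The study used gonadectomised mice to separate the effects of gonad type, sex chromosomes and sex hormones on transcript levels in both tissues. All mice had a C57BL/6J background, and where they carried a Y chromosome its testis-determining gene Sry had been deleted (written Y-). Sry was present or absent as an autosomal transgene. Mice of the genotypes XX and XY- carry no Sry and develop ovaries, whereas XXSry and XY-Sry mice carry the transgene and develop testes. Every mouse, controls included, lost its gonads at 75 days of age and received at that time a capsule. The capsule was blank (B), or it held estradiol (E, 50 µg) or testosterone (T, 5 mM). Fat and liver were taken 3 weeks later. A contrast of gonad type thus compares mice that had developed testes or ovaries and no longer had them. Liver had 5 arrays for each of its 12 groups of genotype and treatment. Adipose tissue had 3 for XX B, 4 for each of XY-Sry B, XX T and XXSry E, and 5 for the remaining 8. The labels do not say whether each array is a separate mouse, so p-values measure the spread between arrays.

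Matrix metalloproteinases are secreted or membrane-bound zinc enzymes made as inactive precursors, and together they can cleave most matrix proteins. ADAMs mainly shed the outer parts of membrane proteins such as cytokines, growth factors and receptors, while ADAMTS enzymes cut proteoglycans or trim procollagens. The TIMPs bind the active sites of these enzymes, each with its own preference. In fat these proteins take part in reshaping the matrix around growing adipocytes, and in liver many of them come from stellate cells, macrophages and other non-parenchymal cells.

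Transcript levels are log2 intensities after background correction and normalisation. A probe was called when its limma adjusted p for a contrast was under 0.05, and the arms below are the 6 combinations of treatment and gonad type, with both chromosome complements together. Slide below means the number that opens an array's name in the titles and column headers. No label names it as a slide, so this reading is inferred. The share of probes detected per array was 40.3% to 49.0% in adipose tissue and 31.8% to 41.0% in liver. The array labelled liver XY-Sry T replicate 5 had Xist at 6.63 and Eif2s3y at 4.53, against 4.43 to 5.45 and 6.76 to 8.14 in the other XY liver arrays, so it goes against its genotype label. The array labelled liver XY- E replicate 5 had Hsd3b5, a gene read here as a marker of testosterone treatment, at 12.26. Testosterone liver arrays spanned 11.15 to 12.95, and the remaining estradiol liver arrays spanned 4.50 to 11.19. Of these, XXSry E spanned 8.47 to 11.19, so its highest array lies just inside the testosterone range. The highest XX E and XY-Sry E arrays were at 7.14 and 7.72. Every XXSry E array was above all blank liver arrays, which reached 7.36, so this group stood apart as a whole. Without XY-Sry T replicate 5, XY- E replicate 5 and XXSry E replicate 5 the liver counts below stayed at 4, 3 and 1 probes. The other XXSry E arrays remained in that fit, so it does not cover the group. The label fields of adipose XX E replicate 1 disagree on the treatment. Its Greb1, which estradiol induces, was 9.22, within the 7.17 to 9.30 of the remaining arrays labelled estradiol. All 7 adipocyte markers were tested in fat, and 5 of 7 were never detected in liver. All 7 hepatocyte markers were tested in liver, but 6 of 7 were also tested in fat. Their summed level there was 16.48 in XY-Sry T replicate 1, as high as in liver, and 14.12 and 13.96 in XX T replicate 4 and XXSry B replicate 1. Without these 3 fat arrays the counts of called member probes were 18 for estradiol, 3 for testosterone and 1 for gonad type, in place of 21, 6 and 2.

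Promoter windows are shown for 5 members, chosen with their results known. Timp1, Adamts2 and Mmp14 rose in fat under estradiol, and Timp4 went opposite ways under the 2 hormones. Mmp3 was picked because its window holds letter matches to an AP-1 site and a TATA box, both defined below. The sequences are the 250 bases before the annotated transcript start, 5′ to 3′ on the gene's strand, from RefSeq on GRCm38.p6. Capitals mark matches on either strand to an AP-1 site (TGANTCA), the perfect palindromic estrogen response element, a GC box (GGGCGG) or a TATA box (TATAAA).
Timp1, chrX:20869916-20870165, plus strand: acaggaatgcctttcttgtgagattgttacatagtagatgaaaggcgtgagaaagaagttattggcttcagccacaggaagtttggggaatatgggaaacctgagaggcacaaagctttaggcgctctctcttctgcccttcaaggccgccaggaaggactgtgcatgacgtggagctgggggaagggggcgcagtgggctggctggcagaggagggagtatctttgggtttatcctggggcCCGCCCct
Timp4, chr6:115252206-115252455, minus strand: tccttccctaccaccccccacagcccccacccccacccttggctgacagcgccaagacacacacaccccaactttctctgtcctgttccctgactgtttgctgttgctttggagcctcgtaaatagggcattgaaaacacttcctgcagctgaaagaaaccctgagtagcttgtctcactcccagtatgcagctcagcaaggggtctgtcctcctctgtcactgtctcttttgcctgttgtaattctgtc
Adamts2, chr11:50601835-50602084, plus strand: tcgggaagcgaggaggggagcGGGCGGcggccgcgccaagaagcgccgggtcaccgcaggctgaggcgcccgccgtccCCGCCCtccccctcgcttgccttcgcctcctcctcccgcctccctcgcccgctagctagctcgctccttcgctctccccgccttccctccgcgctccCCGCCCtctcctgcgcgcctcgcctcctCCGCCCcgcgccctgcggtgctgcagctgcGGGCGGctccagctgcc
Mmp14, chr14:54431348-54431597, plus strand: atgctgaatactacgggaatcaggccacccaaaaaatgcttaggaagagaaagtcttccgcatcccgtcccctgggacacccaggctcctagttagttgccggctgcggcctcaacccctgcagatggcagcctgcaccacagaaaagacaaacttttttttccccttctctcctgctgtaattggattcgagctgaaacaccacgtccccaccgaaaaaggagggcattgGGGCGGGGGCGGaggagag
Mmp3, chr9:7445572-7445821, plus strand: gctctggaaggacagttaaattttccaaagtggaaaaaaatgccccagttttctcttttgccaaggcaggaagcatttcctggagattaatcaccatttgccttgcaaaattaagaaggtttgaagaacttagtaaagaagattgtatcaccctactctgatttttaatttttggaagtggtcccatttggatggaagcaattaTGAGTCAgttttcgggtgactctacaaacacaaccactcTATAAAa
The Mmp3 window held an AP-1 match at -46 to -40 and a TATA match at -7 to -2 from the start. Adamts2 held 5 GC boxes, Mmp14 held 2 and Timp1 held 1 at -8 to -3, while Timp4 held none of the 4 motifs. Windows were matched for 22 of the 35 symbols tested in either tissue. An AP-1 match was present in 3 of them, against 6.75% of all 32851 windows, and a GC box in 14, against 32.7%. A TATA match was found in 4 members and in 12.4% of all windows. The estrogen response element was in 0 of the 22 windows and in 0.0639% of all windows. These are matches of letters, and binding was not measured.

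Estradiol changed the protease and inhibitor transcripts of fat widely and mostly upwards. Timp1 rose 5.63- and 5.74-fold on its 2 probes, the largest differences among the tested members. Adamts2, which trims the amino end of fibrillar procollagens, rose about as clearly on all 3 of its probes, and the proteoglycan-cleaving Adamts15, the gelatinase Mmp2 and the membrane-type Mmp14 rose too. Timp4 and Timp3 fell. Of 42 tested probes 21 were called, 16 higher and 5 lower with estradiol, for 12 genes that rose and 5 that fell. Of the 12, Adamts16, Adamts18 and Mmp19 were tested only because estradiol arrays detected them. Over all probes tested in fat 20.5% were called, 10.4% higher and 10.1% lower, and the median difference was 0.31 for the members against -0.02 for all tested probes (log2, estradiol minus blank).

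Among the inhibitors, Timp1 in blank mice ranged from 6.16 through a median of 7.63 to 8.57 in the ovary arm (n = 8) and from 6.97 through 7.31 to 8.48 in the testis arm (n = 9). With estradiol it ranged from 8.51 through 9.96 to 10.94 (n = 10) and from 9.21 through 9.76 to 12.21 (n = 9). In the testis arms every estradiol array was above every blank array, and in the ovary arms the ranges overlapped only between 8.51 and 8.57. The difference was 2.49 ± 0.35 (log2, SE; limma adjusted p = 3.06e-07) on this probe and 2.52 ± 0.35 (adjusted p = 3.58e-07) on the second, with the same sign in 4 of 4 genotypes.

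Timp2, which inhibits Mmp2 but also helps Mmp14 to activate it, had medians of 13.03 and 13.00 in the blank ovary and testis arms and 13.40 and 13.65 with estradiol. The arms overlapped, and the difference was 0.52 ± 0.11 (SE, limma adjusted p = 0.000427). Timp4, an inhibitor abundant in fat and heart, spanned 8.73, 9.75 and 10.73 (lowest, median and highest) in the blank ovary arm and 7.88, 8.57 and 9.60 with estradiol. Its testis arms lay closer, at 8.85, 9.17 and 10.05 for blank and 8.11, 9.13 and 9.79 for estradiol. The estradiol difference of Timp4 was -0.70 ± 0.21 (SE, limma adjusted p = 0.0114), and with median centring in place of quantile normalisation it was -0.65 with an adjusted p of 0.0884. Timp3, the TIMP that is held in the matrix, fell by 0.35 on 1 of its 2 probes (limma adjusted p = 0.0167), and without XX B replicate 1 its adjusted p was 0.0541. The second Timp3 probe differed by 0.12 (limma adjusted p = 0.755), so the probes of this gene disagree.

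Adamts2 was measured by 3 probes, and all 3 rose. On the probe with the smallest adjusted p the blank ovary arm lay at 9.77, 10.97 and 11.49 (lowest, median, highest) and the blank testis arm at 10.01, 10.21 and 11.12. Estradiol arms lay at 10.88, 11.99 and 12.48 in the ovary arm and at 12.00, 12.56 and 12.90 in the testis arm. All 9 testis-arm estradiol arrays were above all 9 blank ones, and in the ovary arm 1 estradiol array, XY- E replicate 3, lay low among the blank values. The difference was 1.64 ± 0.14 (SE, limma adjusted p = 2.26e-12), or 3.12-fold, and 1.66 ± 0.17 and 1.40 ± 0.13 on the other probes.

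The proteoglycan-cleaving ADAMTS enzymes, which cut aggrecan and versican, included 2 of 4 tested genes that rose. Adamts15 was detected in 7 of 17 blank arrays and in 19 of 19 estradiol arrays. Its blank arms lay at 4.50, 6.36 and 7.41 (ovary) and 4.90, 5.54 and 6.67 (testis), and its estradiol arms at 5.90, 7.22 and 8.75 and at 6.86, 8.06 and 8.40. Only the testis arms were apart, and the difference was 1.61 ± 0.25 (SE, limma adjusted p = 2.12e-06).

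Adamts4 was detected in 3 of 17 blank and 15 of 19 estradiol arrays and rose by 0.92 ± 0.25 (SE, limma adjusted p = 0.00499). With slide as a fixed block its difference was 0.49 and the adjusted p 0.232. Adamts1 differed by 0.02 (limma adjusted p = 0.960) and Adamts5 by 0.34 (0.363). Adamts16, Adamts18 and Mmp19 were detected in 0 of 17 blank arrays and in 5, 3 and 4 of 19 estradiol arrays, so they were not above background in the blank arms. All 3 were called higher (limma adjusted p = 0.0366, 0.000615 and 0.0102). The filter required detection in 3 adipose arrays, which none of them reached without estradiol arrays. Their calls are therefore not independent of the filter and are not read as support for a rise, and no fold is given for them. Mmp19 lost its call with slide as a fixed block (adjusted p = 0.0552), and Adamts16 lost it with no filter on dim probes (0.0576) and in 13 fits without 1 array. The 5 estradiol arrays that detected Adamts16 were all of the testis arm. Adamts7, an enzyme linked to cartilage matrix turnover, fell by 0.43 (limma adjusted p = 0.00187) and was detected in 8 of 17 blank and 4 of 19 estradiol arrays.

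Among the gelatinases, which degrade denatured collagen and basement membrane, Mmp2 and Mmp9 differed. Mmp2 lay at 12.07, 12.68 and 13.71 in the blank ovary arm and at 12.26, 12.44 and 12.94 in the blank testis arm. With estradiol it lay at 12.35, 13.55 and 13.90 and at 12.80, 13.89 and 14.20. Medians were higher with estradiol in both arms, with 1 low estradiol array in each. The difference was 1.02 ± 0.15 (SE, limma adjusted p = 8.74e-07), or 2.03-fold. Mmp9 lay between 7.42 and 9.04 over the blank and estradiol arms and was not called (-0.20, limma adjusted p = 0.378).

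Mmp14, the membrane enzyme that activates Mmp2 and cuts collagen at the cell surface, had blank medians of 11.56 and 11.69 and estradiol medians of 12.53 and 12.59 in the ovary and testis arms. The lowest estradiol arrays, 11.93 and 11.95, lay within the blank ranges, which reached 12.42 and 12.15. Mmp14 rose by 0.81 ± 0.11 (SE, limma adjusted p = 2.97e-07), while the other 2 membrane-type genes tested, Mmp15 and Mmp17, were not called.

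The stromelysin Mmp3, which also activates other proteases, was called on 2 of 3 probes at 0.60 and 0.55 (limma adjusted p = 0.0436 and 0.0442), and the third differed by 0.43 (0.209). Its blank arms ranged from 7.66 to 10.41 and its estradiol arms from 7.68 to 10.72 on the first probe, and the call was lost in 19 of the fits that left out 1 array each and, on the other called probe, in 25. Median centring and slide as a fixed block also lost both calls (adjusted p = 0.254 and 0.284 with the fixed block). Mmp11 fell by 0.47 (limma adjusted p = 0.0418), a call that 5 of 9 alternative settings and 19 fits without 1 array lost. With slide as a fixed block its difference was -0.16 (adjusted p = 0.641), and with slide as a random block it was -0.30 (0.225). Of the collagenases, 1 of 2 Mmp1a probes was lower by 0.32 (limma adjusted p = 0.0465), which 23 fits without 1 array and 5 of 9 alternative settings lost. Mmp1a probes may share signal with the close copy Mmp1b, which was not tested. The Mmp1b probe itself was detected in 0 of 55 adipose arrays. Mmp13 was not called. Mmp23 rose by 0.42 (limma adjusted p = 0.00817), a call lost with slide as a fixed block (adjusted p = 0.0805) and under median centring (0.07).

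Of 8 tested probes for 7 shedding ADAM genes, limma called 0 with estradiol, testosterone or gonad type in fat, where 20.5%, 4.75% and 7.34% of all tested probes were called. Their estradiol differences ran from -0.32 to 0.36. Whether they differ from the other groups was not tested, and several small groups likewise had no call for testosterone or gonad type. Adam17, the main shedding enzyme of tumour necrosis factor, was detected in all 55 adipose arrays, and its arm medians ran from 9.26 to 9.41. Its estradiol difference was 0.07 ± 0.08 (SE, limma adjusted p = 0.594). The Adam10 probe was detected in 0 of 55 adipose and 0 of 60 liver arrays.

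**Figure D1:**
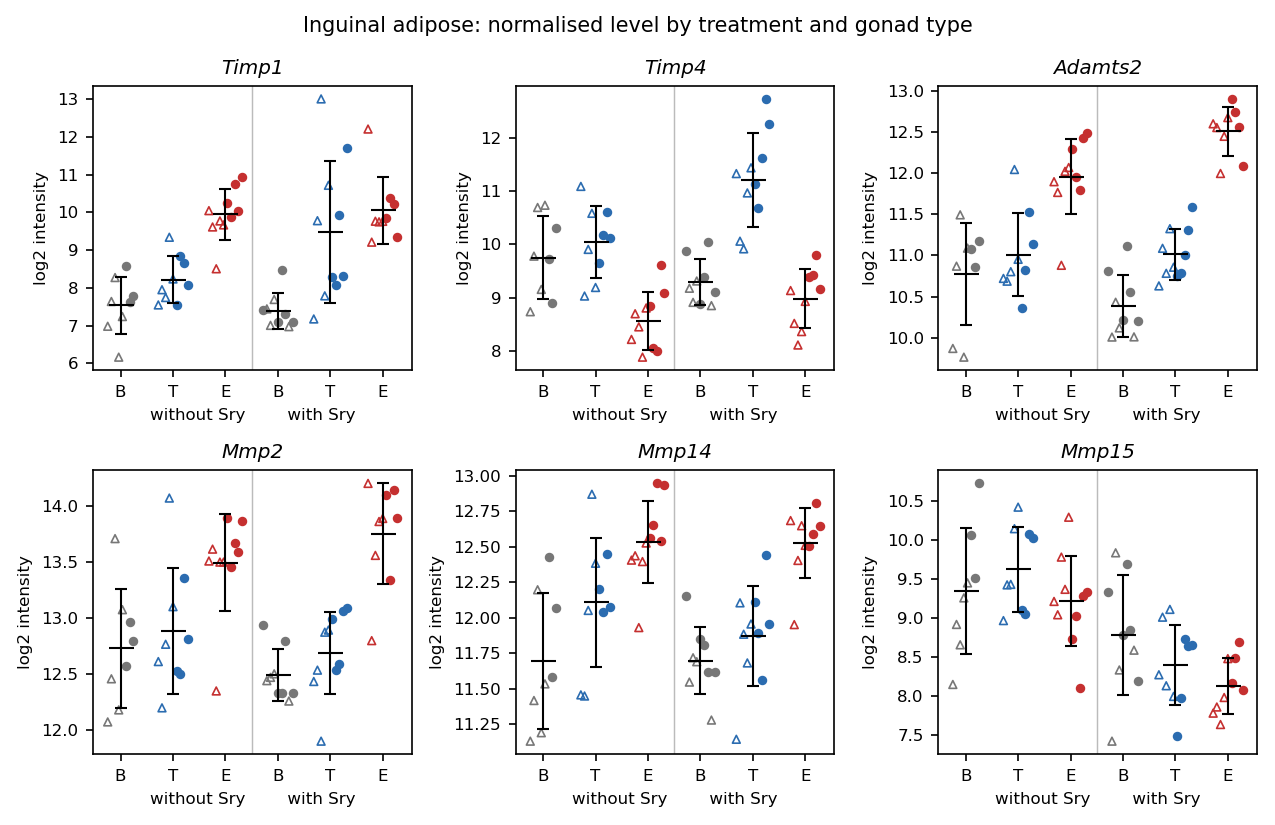
Normalised level (log2 intensity) of 6 genes in every adipose array, by treatment (B blank, T testosterone, E estradiol) and gonad type, with filled circles for XX and open triangles for XY arrays and bars for the mean ± SD of an arm of 8 to 10 arrays. Each panel has its own axis and shows 1 probe. Timp1, Adamts2, Mmp2 and Mmp14 are highest on average with estradiol, although the highest single Timp1 array is of the testosterone testis arm. Timp4 is highest with testosterone in mice with Sry, and Mmp15 is lower in mice with Sry.

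A slide, as inferred from the array names, held several arrays, and each of the 8 slides of a tissue lacked at least 1 treatment. With slide as a fixed block, 14 of 42 member probes were called for estradiol in fat, 11 higher and 3 lower. Over all tested probes 14.3% were then called, and 53.1% of those calls were higher. The higher member calls still include Adamts16 and Adamts18, whose calls are not independent of the filter. On the 2 slides that held both blank and estradiol arrays, Timp1 was higher by 1.88 and 2.49, Adamts2 by 1.47 and 1.72, Adamts15 by 1.07 and 1.47, Mmp2 by 0.42 and 1.10 and Mmp14 by 0.46 and 0.87. Timp4 was lower on both, by 0.95 and 1.24. Adamts16 and Mmp23 had the fitted sign on only 1 of the 2 slides. Taking adipose XX E replicate 1 as testosterone gave 18 called member probes for estradiol, where 19.8% of all tested probes were called.

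Other genes of extracellular proteolysis moved along with the members in fat. Of 29 tested genes on a list of 44, which holds plasminogen activators, serpins, cathepsins, lysyl oxidases, thrombospondins and procollagen processing enzymes, 13 rose and 2 fell with estradiol, with a median of 0.44. The largest differences were those of Thbs1, a thrombospondin that binds latent growth factor, at 2.41, Papln, a matrix protein related to the ADAMTS family, at 1.44, the secreted serine protease Htra1 at 1.25 and Bmp1, which trims the carboxyl end of procollagens, at 1.17. Their limma adjusted p-values were 3.41e-09, 3.22e-12, 1.85e-12 and 3.28e-09.

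Markers of cell types moved with estradiol in fat as well. All 6 tested macrophage markers rose, with a median of 1.20, and 3 of the 10 listed (Itgax, Msr1 and Cd5l) were never detected. The summed macrophage level (log2 of summed intensities) was 11.71 to 12.88 and 11.32 to 12.41 in the blank ovary and testis arms and 12.31 to 13.51 and 12.19 to 13.59 with estradiol. Of 10 tested fibroblast markers 6 rose and 1 fell, with a median of 0.49 and summed levels of 14.65 to 15.76 and 14.52 to 15.22 in the blank arms and 14.71 to 15.65 and 15.11 to 15.85 in the estradiol arms. Of the listed fibroblast and stellate markers only Lrat was never detected in fat. Adipocyte markers fell in 3 of 7 cases, endothelial ones in 3 of 6 and epithelial ones rose in 3 of 11. Skeletal muscle markers varied widely, from a summed level of 9.83 to 17.19 in the estradiol ovary arm, with 0 of 8 called by limma and a median of -0.96. In whole tissue, fewer cells of a type and less RNA per cell cannot be told apart, and the part of these shifts in the members' differences was not tested.

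**Figure D2:**
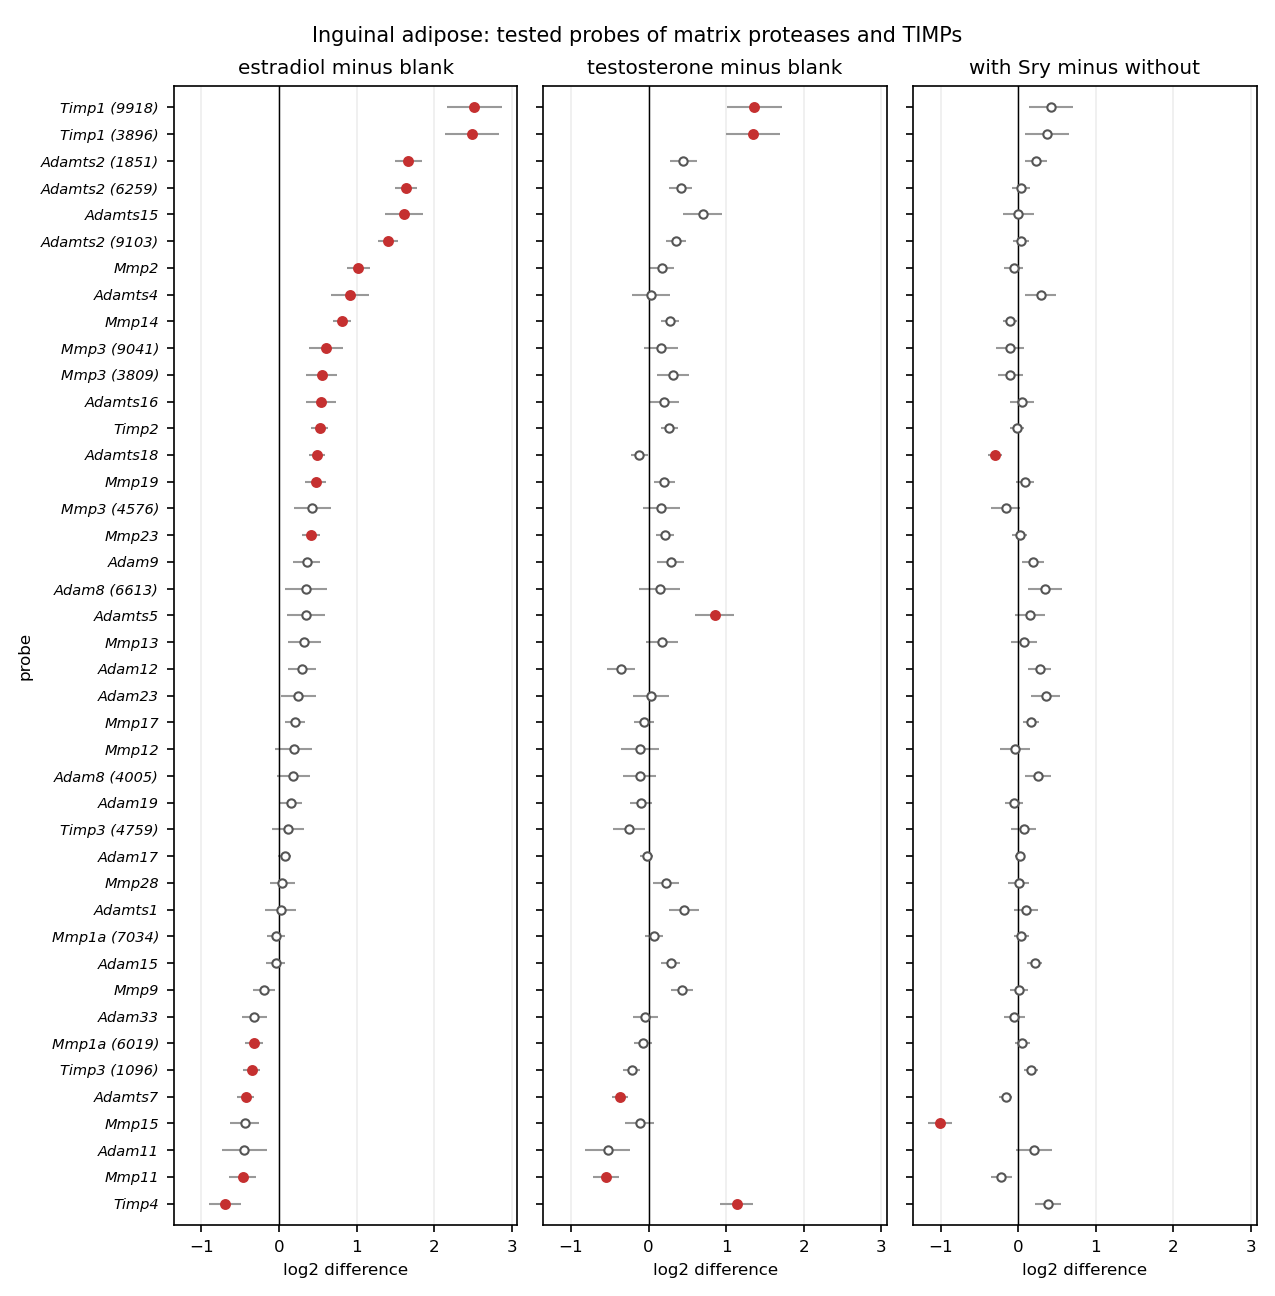
Differences (log2, with bars for ± 1 SE) of the 42 tested member probes in adipose tissue for estradiol minus blank, testosterone minus blank and mice with Sry minus mice without, with filled red points for probes called at a limma adjusted p under 0.05 and 4 digits to tell probes of a gene apart. Red points are most numerous for estradiol, 21 against 6 for testosterone and 2 for gonad type.

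Testosterone called fewer members in fat, and the inhibitors led them. Timp1 and Timp4 both rose, as did the proteoglycan-cleaving Adamts5, whereas Adamts7 and Mmp11 fell. Of 42 probes 6 were called, 4 higher and 2 lower, for 5 genes, against 4.75% of all tested probes, 2.16% higher and 2.59% lower. The median difference was 0.17 for members and -0.02 for all tested probes. The testosterone and estradiol contrasts share the blank arrays, so their likeness is not read as a result.

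Timp4 under testosterone lay at 9.03, 10.12 and 11.08 in the ovary arm and at 9.91, 11.23 and 12.72 in the testis arm, against the blank values given above. In the testis arm all but the lowest testosterone array were above the highest blank array, and in the ovary arm the ranges overlapped over most of their length. The difference was 1.13 ± 0.21 (SE, limma adjusted p = 0.000369), or 2.20-fold, with the same sign in 4 of 4 genotypes. It was the only testosterone call among the members of fat that slide as a fixed block kept (limma adjusted p = 0.0032), and on the 2 slides with both treatments the difference was 0.30 and 2.27. Timp4 thus had opposite fitted signs under the hormones, -0.70 for estradiol and 1.13 for testosterone, each against the same blank arrays.

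Timp1 under testosterone was spread widely in the testis arm, at 7.18, 9.04 and 13.00, and narrowly in the ovary arm, at 7.54, 8.06 and 9.34. The SD was 1.89 in the former (n = 10) and 0.62 in the latter (n = 9). Hepatocyte markers also varied in the testis arm of these fat samples, from a summed level of 8.42 to 16.48, with 0 of 6 called by limma. The array with the highest sum, XY-Sry T replicate 1, had the lowest Timp1 of the arm. The Timp1 difference was 1.35 ± 0.35 (SE, limma adjusted p = 0.0135) and 1.36 ± 0.35 (0.0143) on the second probe. Without that array both probes were still called higher by limma. With slide as a fixed block the differences were 1.14 and 1.18 and the adjusted p 0.198 and 0.185.

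Adamts5, an aggrecan-cleaving enzyme, had testosterone medians of 9.83 and 10.07 against blank medians of 9.17 and 8.89 in the ovary and testis arms, with overlap in both. It rose by 0.85 ± 0.25 (SE, limma adjusted p = 0.0307), and 9 fits without 1 array, median centring, no filter on dim probes and slide as a fixed block lost the call, with adjusted p up to 0.225. Adamts7 fell by 0.37 (limma adjusted p = 0.0284). It lost its call without XY-Sry B replicate 4, XX B replicate 2, XX B replicate 3 or XX T replicate 4, with adjusted p up to 0.0851, and under median centring (0.0794) and slide as a fixed block (0.136). Mmp11 fell by 0.55 (limma adjusted p = 0.0485), a call that 7 of 9 alternative settings and 39 fits without 1 array lost. Without XX B replicate 2 or XX T replicate 4, 3 member probes were called in place of 6. Of the proteolysis list 3 of 29 genes rose and 1 fell, namely the protease inhibitor Serpine2 at 1.29, the collagen cross-linking Lox at 0.999, Bmp1 at 0.53 and the membrane peptidase Mme at -0.52. Endothelial markers fell in 3 of 6 cases, with summed levels of 12.44 to 12.97 and 12.60 to 13.12 in the blank arms and 12.19 to 12.81 and 12.10 to 12.61 with testosterone, and 1 of 6 macrophage markers rose. Their part was not tested.

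Mmp15 was lower in fat of mice with Sry, and it was the only member above background that limma called for gonad type. With Adamts18, described below, 2 of 42 probes were called, or 4.76%, beside 7.34% of all tested probes, 2.63% higher and 4.71% lower with Sry. The higher calls made up 35.8% of the calls over all probes (23.4% under median centring). Mmp15, a membrane-type enzyme, lay at 8.15, 9.36 and 10.73 in the blank ovary arm, 8.97, 9.43 and 10.42 with testosterone and 8.10, 9.25 and 10.29 with estradiol. In the testis arms it lay at 7.42, 8.78 and 9.84, at 7.49, 8.46 and 9.11 and at 7.64, 8.08 and 8.70. The testis arms had the lower median under every treatment, and all 3 pairs overlapped. The difference was -1.01 ± 0.15 (SE, limma adjusted p = 1.21e-06), with the same sign in 6 of 6 strata of treatment and chromosomes and on 7 of 8 slides.

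Epithelial markers were lower with Sry beside Mmp15: 10 of 11 tested genes fell, with a median of -3.20. Their summed level was 11.63 to 14.63 over the 3 ovary arms and 8.73 to 12.15 over the 3 testis arms, none of the 11 genes on the array went undetected, and their part in the Mmp15 difference was not tested. The summed level of neutrophil markers was 9.94 to 14.36 over the ovary arms and 8.42 to 12.61 over the testis arms, with 1 of 6 genes called lower, and its part was not tested either. Adamts18 was called lower with Sry (limma adjusted p = 0.0253) but was detected in only 2 of 27 arrays without Sry and 1 of 28 with it. It was thus not above background in most arrays of either group, and no difference is given. Its call was lost under median centring (adjusted p = 0.154) and without XXSry E replicate 2 or XX B replicate 2 (adjusted p up to 0.0611). Of the proteolysis list Papln fell by 1.33 and the protease-activating Furin by 0.22 with Sry, and 0 of 29 rose.

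Whether a hormone acted differently by gonad type was tested as an interaction. In fat limma called 0 of 42 member probes for either hormone. Over all tested probes 0.813% were called for estradiol (0.253% higher, 0.560% lower) and 0.0137% for testosterone. At an unadjusted limma p under 0.05 there were 10 and 11 of the 42 member probes, beside 5.88% and 4.26% of all tested probes. The smallest adjusted p for estradiol was that of an Adamts2 probe, whose estradiol difference was larger with Sry by 1.31 ± 0.35 (SE, limma adjusted p = 0.0524). Mmp11 followed, with a difference of differences of -1.25 ± 0.34 (adjusted p = 0.0623). For testosterone Timp4 came first, at 1.63 ± 0.42 (SE, limma adjusted p = 0.49). These calls moved with the processing, and array weights gave 5 member probes for estradiol by gonad. In liver 0 of 21 member probes were called for either interaction. Over all tested probes 0.0795% were called for estradiol (0.0707% higher, 0.00884% lower) and 0.124% for testosterone (0.0972% higher, 0.0265% lower). At an unadjusted limma p under 0.05 there were 3 and 2 of the 21, beside 5.5% and 5.82% of all tested probes. Adam11 had the smallest adjusted p in both, with differences of differences of -1.10 for estradiol (limma adjusted p = 0.113) and -0.96 for testosterone (0.357).

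In liver fewer members were measurable and fewer were called. Of the 99 probes 60 were not detected in any liver array, among them all 3 of Mmp3 and those of Adamts4, Adamts5 and Mmp11, which fat expresses. Timp4 was detected in 1 of 60 liver arrays and was not tested. The tested probes comprised 20 that were also tested in fat and 1, of Mmp24, tested in liver alone.

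Estradiol lowered Adam11, Mmp15 and Timp3 in liver and raised 1 of 2 Adamts2 probes. These 4 of 21 probes, or 19.0%, stand beside 6.82% of all tested probes, with 3.55% higher and 3.27% lower. The median difference was 0.02 for members and -0.02 for all. With median centring in place of quantile normalisation the all-probe median moved to -0.18. Of all tested probes 12.3% were then called in place of 6.82%, and 8.55% of these calls were higher in place of 52.1%. Among the members 0 were called higher and 6 lower.

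Adam11, a member that lacks protease activity and is best known from neurons, lay in liver at 4.95, 5.67 and 6.01 in the blank ovary arm and at 6.00, 6.74 and 7.21 in the blank testis arm. With estradiol the arms lay at 4.51, 5.06 and 7.23 and at 4.73, 5.44 and 5.61. In the testis arm every estradiol array was below every blank array. In the ovary arm XY- E replicate 2 was the highest of all at 7.23, and the remaining estradiol arrays overlapped the blank ones. The difference was -0.88 ± 0.15 (SE, limma adjusted p = 4.66e-05), and the probe was detected in 17 of 20 blank and 3 of 20 estradiol arrays. Adam11 was also the only liver member called for gonad type, higher with Sry by 0.46 ± 0.12 (SE, limma adjusted p = 0.0128) in 5 of 6 strata and on 6 of 8 slides, where 3.40% of all tested probes were called, 0.548% higher and 2.85% lower. That value averages over treatments, and the fitted gonad difference was largest in blank mice. Relative to blank it changed by -1.10 with estradiol and -0.96 with testosterone, neither called. The other Adam11 probes were detected in 3 and 0 of 60 liver arrays and were not tested.

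Mmp15 in liver lay at 7.69, 8.30 and 8.82 in the blank ovary arm and 8.47, 8.55 and 8.94 in the blank testis arm, and with estradiol at 4.90, 7.57 and 8.51 and at 7.46, 7.98 and 8.44. In the testis arm the ranges came close without overlap, and in the ovary arm XX E replicate 1 was far below the others. Mmp15 fell by 0.76 ± 0.15 (SE, limma adjusted p = 0.000707), and without any single array the difference lay between -0.81 and -0.63, with adjusted p up to 0.00168. On the 2 slides with both treatments the differences were -0.32 and -1.73. Timp3 fell by 0.36 (limma adjusted p = 0.0416), a call that 21 fits without 1 array and slide as a fixed block (adjusted p = 0.0614) lost. Adamts2 had liver medians of 6.80 and 6.50 without and 7.03 and 7.06 with estradiol on the called probe, a rise of 0.38 ± 0.10 (SE, limma adjusted p = 0.00734), a call that median centring lost (adjusted p = 0.35).

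Timp1, which rose most in fat, was near background in liver: 6 and 5 of 60 arrays detected its probes, 4 of the 6 arms had no detection on the first probe, and estradiol differences of 0.19 and 0.29 were not called. In single arrays of the estradiol ovary arm it reached 7.23 and 7.62. Mmp9 was detected in 5 of 60 liver arrays, 4 of them of that arm. Neutrophil markers in liver rose with estradiol in 5 of 7 cases (median 0.91), with summed levels of 7.98 to 11.19 in the blank ovary arm and 8.21 to 13.40 in the estradiol ovary arm, and macrophage markers rose in 6 of 7 cases (median 0.57). Their part in the liver differences was not tested. Of the proteolysis list 2 of 23 tested genes rose, Bmp1 by 0.46 and Pcolce2 by 0.36, and 2 fell, Mme by 0.46 and the plasminogen activator Plau by 0.42.

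**Figure D3:**
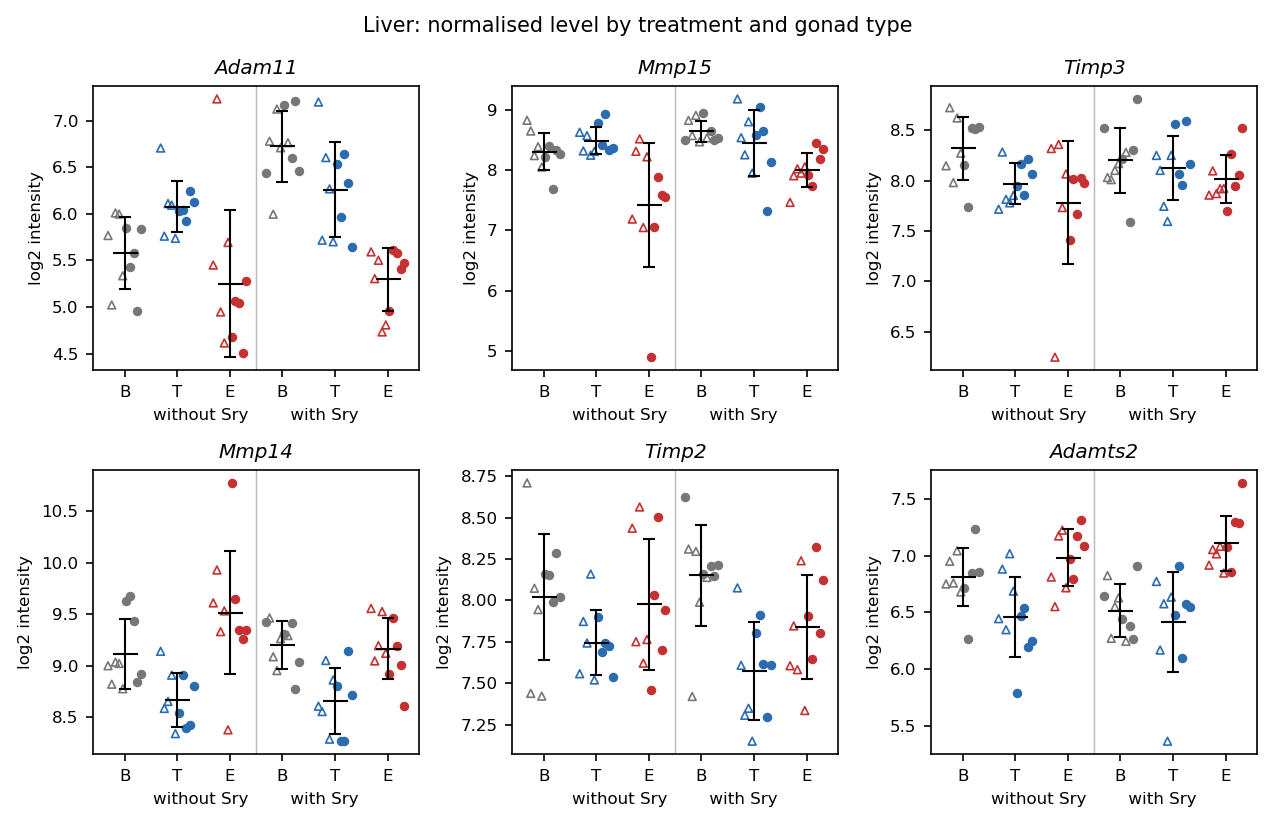
Normalised level (log2 intensity) of 6 genes in every liver array, by treatment (B blank, T testosterone, E estradiol) and gonad type, with filled circles for XX and open triangles for XY arrays and bars for the mean ± SD of an arm of 10 arrays. Each panel has its own axis; Adam11 and Mmp15 are low with estradiol, each with a single distant array in the ovary arm, and Mmp14 and Timp2 are low with testosterone.

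Testosterone lowered Mmp14, Timp2 and 1 of 2 Adamts2 probes in liver and raised no tested member, as called by limma. These are 3 of 21 probes, or 14.3%, where 19.1% of all tested probes were called, 8.17% higher and 10.9% lower. With only 3 calls, the shares are not read as different. At an unadjusted p under 0.05 there were 6 of 21, beside 31% of all tested probes. The median difference was -0.12 for members and 0.00 for all tested probes, of whose calls 42.8% were higher (16.5% under median centring).

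Mmp14 in liver lay at 8.77, 9.01 and 9.67 and at 8.77, 9.28 and 9.46 in the blank ovary and testis arms, and at 8.34, 8.62 and 9.14 and at 8.26, 8.66 and 9.14 with testosterone. The arms overlapped in the lower part of the blank range. It fell by 0.50 ± 0.11 (SE, limma adjusted p = 0.000939), on 3 of 3 slides with both treatments. Timp2, its partner in Mmp2 activation, had medians of 8.05 and 8.18 without and 7.73 and 7.61 with testosterone and fell by 0.43 ± 0.10 (SE, limma adjusted p = 0.00189), also on 3 of 3 slides. Mmp2 itself was not called in liver (-0.26, limma adjusted p = 0.128). Adamts2 fell by 0.30 (limma adjusted p = 0.0351), a call lost under 4 alternatives and in 11 fits without 1 array, with adjusted p up to 0.213.

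In the proteolysis list 9 of 23 liver genes fell and 2 rose with testosterone. The largest differences were those of Mme (-0.93), Serpine2 (0.57), the thrombospondin Thbs2 (-0.49) and the cathepsin Ctss (-0.44). Of the marker lists, 4 of 7 macrophage, 2 of 9 fibroblast and stellate cell and 2 of 6 endothelial genes fell with testosterone. The summed macrophage level was 12.02 to 12.96 and 11.39 to 11.80 in the blank ovary and testis arms and 11.13 to 12.04 and 10.84 to 11.87 with testosterone. The summed fibroblast and stellate level was 12.17 to 12.83 and 12.11 to 12.74 against 12.11 to 12.55 and 11.88 to 12.50. Their part was not tested.

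**Figure D4:**
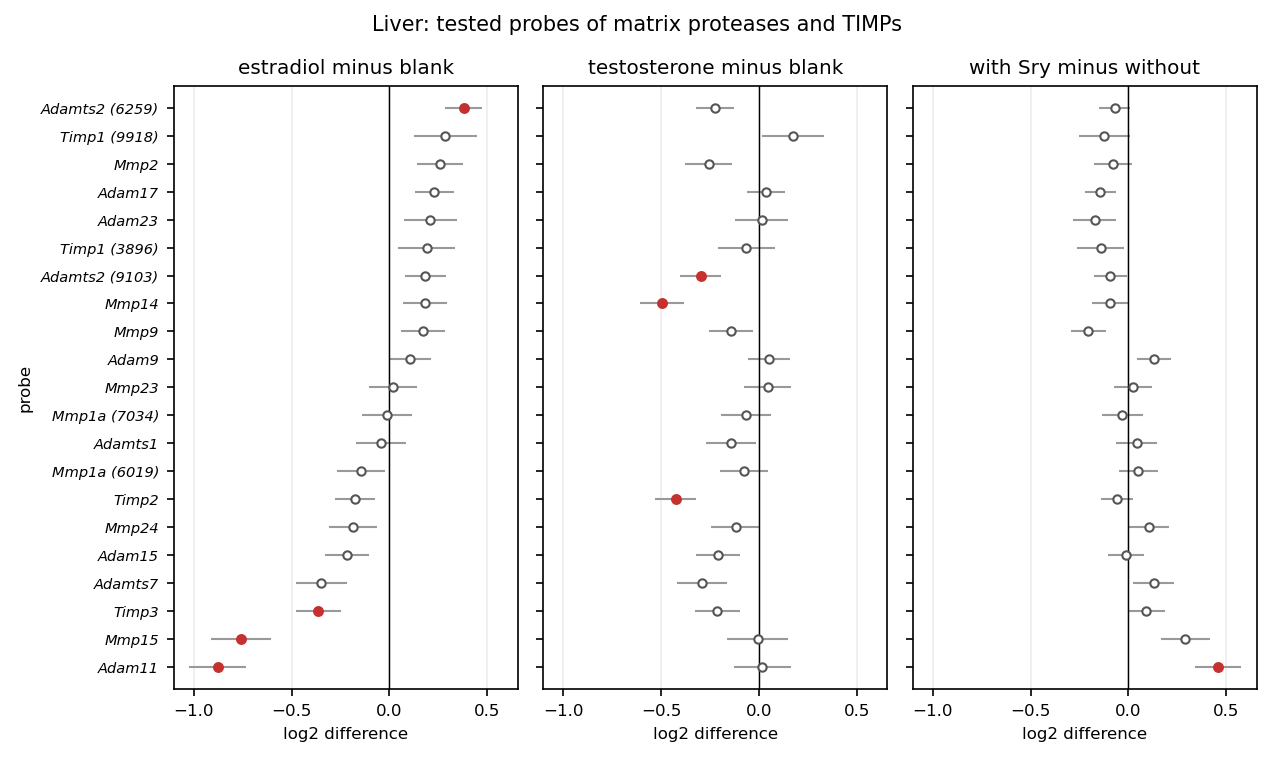
Differences (log2, with bars for ± 1 SE) of the 21 tested member probes in liver for estradiol minus blank, testosterone minus blank and mice with Sry minus mice without, with filled red points for probes called at a limma adjusted p under 0.05 and 4 digits to tell probes of a gene apart. Red points number 4, 3 and 1, and the largest difference is that of Adam11 with estradiol, -0.88.

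By gonad type in liver the member count was 1 of 21, or 4.76%, beside 3.40% of all tested probes. Macrophage markers were lower with Sry in 6 of 7 cases (median -0.60), neutrophil markers in 4 of 7 and lymphocyte markers in 3 of 4. Of the proteolysis list Ctss and Pcolce2 were lower with Sry, by 0.66 and 0.33, and Serpine2 was higher by 0.35.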

How the data were processed

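Per the labels' protocols, RNA of liver and inguinal adipose tissue was isolated with Trizol and hybridised to Illumina expression arrays. Per the file headers, the authors deposited an unlogged intensity per probe and array, averaged over beads. A p-value for detection was deposited beside it. The submitters' processing notes name lumi, but the deposited intensities showed no background subtraction or normalisation: the lowest was 92.6 in adipose tissue and 89.1 in liver, and array medians ran from 130 to 230 and from 124 to 159. Another 115 columns, the bead standard errors, were not used. The scanner software and array version are not given in the sources used here.

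Each tissue was processed on its own in limma 3.58.1 (R 4.3.3): normexp background correction through the detection p-values, an offset of 16, quantile normalisation and log2. The offset understates differences of dim probes. Dim probes were dropped: detection at p under 0.01 was required in 3 adipose or 5 liver arrays, the size of the smallest group, which left 14636 and 11317 of 25697. The filter leaves out genes that are low everywhere, so counts over tested members do not cover all members. A mean was fitted for each of 12 groups per tissue with lmFit and eBayes. Contrasts weight groups equally, so they can differ slightly from differences of arm means, and p-values were adjusted by Benjamini-Hochberg over all tested probes of a contrast.

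The members, the role groups and the gene lists were chosen with earlier results of these data known. Arm values were given for up to 8 called members per contrast with the largest differences, for 13 fixed members where tested and for members called for an interaction. From the other lists up to 4 called genes per contrast were named. In simulated data, shifts of 0.5 and 1.0 on the log2 scale were recovered in 47% and 94% of 100 changed probes each for estradiol in adipose tissue, and in 76% and 99% in liver. Of the simulated calls 7.24% were false in adipose tissue and 2.78% in liver. The noise was independent between probes and without slide effects. Far fewer probes were changed than the 20.5% called in fat, so recovery in the real data can differ. No pair of arrays was identical; the number of arrays limits the precision. Replicate numbers were given in accession order and pair no arrays. Protein sequences were not used. Alternatives covered background correction, normalisation, offset, filter, slide, array weights, doubtful labels and leaving out each array.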

Additional observations from a re-analysis of the deposited data

Results flagged for a closer look

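Values that lay far from the rest of their arm were found by Dixon's test in arms of 8 to 10 arrays; 30 of 222 tested arms passed the 95% critical value, and chance flags about 1 in 20. All values are log2 intensities.

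In adipose tissue the array XY- E replicate 3 was the lowest of the estradiol ovary arm for several genes. It lay at 12.23 and 10.88 for Adamts2 on 2 probes, 12.35 for Mmp2, 7.68, 7.50 and 8.93 for the 3 Mmp3 probes and 12.32 for Timp2. XY-Sry E replicate 2 was the lowest of the estradiol testis arm for Mmp14 (11.95) and for 1 Mmp3 probe (9.38). XY-Sry E replicate 1 was the highest of that arm for Timp1, at 12.21 and 12.11 on the 2 probes. XXSry E replicate 1 was the highest for Adamts2 on 1 probe (14.29). Among blank testis arrays, XXSry B replicate 3 was the highest for Timp1 (8.48 and 8.63) and Adamts4 (7.17), and XXSry B replicate 1 for Adamts1 (7.74). Among testosterone testis arrays, XXSry T replicate 2 was the lowest for Adamts15 (4.70) and XXSry T replicate 5 the highest for an Mmp3 probe (11.49).

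In liver, XY- E replicate 2 was the highest of the estradiol ovary arm for Adam11 (7.23) and the lowest for Timp3 (6.25), and XX E replicate 1 was the lowest for Mmp15 (4.90). For Mmp2 the lowest values were 5.90 in XY- E replicate 5, 5.64 in XY-Sry E replicate 1 and 5.35 in XY- T replicate 3. XY- T replicate 1 was the highest for Adam11 (6.71) and XY-Sry T replicate 4 the lowest for Adamts2 (5.37). Among blank arrays, Timp1 was highest at 5.51 in XY-Sry B replicate 1, 5.68 in XY- B replicate 1 and 5.07 in XXSry B replicate 2, and Timp2 was lowest at 7.42 in XY-Sry B replicate 2.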

How the results depend on the processing

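Of 326 values of the 37 called member differences under alternative settings, 277 kept the call, 49 lost it and 0 changed sign; 19 of the 37 lost it under no setting, among them Timp1, Adamts2, Adamts15, Mmp2, Mmp14 and Timp2 for estradiol, Timp4 for testosterone and Mmp15 for gonad type in fat, and Adam11, Mmp15, Mmp14 and Timp2 in liver. Counts of called probes moved by over 1.5 times in these cases. For testosterone in fat the 6 calls became 3 under median centring and 1 with slide as a fixed block. For gonad type in fat the 2 calls became 1 under median centring and 1 with only probes detected in 0.5 or more of the arrays, which removes Adamts18. For estradiol by gonad in fat the count of 0 became 2 without background correction, 2 with an offset of 50, 2 with slide as a fixed and 2 as a random block, and 5 with array weights, and in liver it became 1 with slide as a random block. An alternative chosen after seeing the data, without the 3 fat arrays highest in hepatocyte markers, gave 3 calls for testosterone and 1 for gonad type and lost 7 of 29 called differences. Leaving out 3 liver arrays with odd label checks lost 0 of 8. The cause of the other moves was not tested. Leaving out each array in turn gave 16 to 21 probes for estradiol, 3 to 7 for testosterone, 1 to 2 for gonad type, 0 to 3 for estradiol by gonad (3 without XY- B replicate 4) and 0 for testosterone by gonad in fat. In liver it gave 3 to 4, 2 to 4, 1, 0 to 1 (1 without XY- E replicate 4) and 0 in the same order. No paired analysis was possible because the labels give no replicate numbers. Signal over background limits what can be said of members detected in few arrays, such as Adamts16, Adamts18 and Mmp19 in fat and Timp1 and Mmp9 in liver.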
